A study of Mus musculus with 14 samples.

Results

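The fibroblast growth factors (FGFs), the bone morphogenetic proteins (BMPs) with the related growth and differentiation factors (GDFs), the inhibin beta subunits and the antagonists Noggin, Chordin and Gremlin were followed at their promoters through the postnatal growth of the mouse cerebellum. Members were the protein-coding genes whose symbols matched Fgf, Bmp or Gdf with a number (also Bmp8a and Bmp8b), Inhba, Inhbb, Inhbc or Inhbe, or that of a listed antagonist, among them Nog, Chrd and Grem1. This gave 51 of 21938 genes. They were 18 secreted FGFs, 4 intracellular FGFs (Fgf11 to Fgf14), 20 BMP and GDF ligands, 4 inhibin beta subunits, the protease gene Bmp1 and 4 antagonists. The rule uses symbols and no measured value.

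ChIP-seq, in which an antibody pulls down chromatin and its DNA is sequenced, located histone H3 trimethylated at lysine 27 (H3K27me3) in dissected cerebellum of C57BL/6NCrl mice. The 9 libraries used here came from mice with no stated genetic change or treatment, 3 each at postnatal days 7, 14 and 60 (P7, P14 and P60), and the comparison asks where the mark is lost or gained as granule neurons mature. Each P60 library came from a single animal of either sex, while P14 and P7 libraries were pools, the P7 pools being the larger, so pool size and stage cannot be told apart. The measure is promoter coverage, the percent of the 3 kb on each side of a gene's transcription start site (TSS) that lay under H3K27me3 peaks, taken at the most covered annotated TSS. A promoter was marked when 1 bp or more was covered. Because the tissue was read in bulk, a smaller share of cells carrying the mark and less of the mark per cell cannot be told apart.

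As background, H3K27me3 is written by Polycomb repressive complex 2 and marks silenced genes, above all CpG-rich promoters of developmental regulators. Secreted FGFs act through receptor tyrosine kinases held with heparan sulphate or Klotho cofactors, and their signal switches on feedback inhibitors such as the Sprouty genes. BMPs, GDFs and activins (dimers of inhibin beta subunits) bind paired serine/threonine kinase receptors and act through Smad proteins, while Noggin, Chordin and Gremlin bind BMPs outside the cell and block them. In the developing hindbrain, Fgf8 and Fgf17 pattern the midbrain and hindbrain border, Fgf15 is expressed in the embryonic hindbrain, and BMPs with Gdf7 from the roof plate act on the rhombic lip, from which granule neurons arise.

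Promoter sequences were available for 35 members from RefSeq (GRCm38.p6), from 250 bases before to 50 after the start. The 7 below are shown because they span the range of the mark among these. Capitals mark every CG, which reads the same on both strands. The Fgf4 promoter (chr7:144861136-144861435, plus strand) lay wholly under peaks in 6 of 9 libraries, as did that of Fgf18 (chr11:33147351-33147650, minus strand).
Fgf4: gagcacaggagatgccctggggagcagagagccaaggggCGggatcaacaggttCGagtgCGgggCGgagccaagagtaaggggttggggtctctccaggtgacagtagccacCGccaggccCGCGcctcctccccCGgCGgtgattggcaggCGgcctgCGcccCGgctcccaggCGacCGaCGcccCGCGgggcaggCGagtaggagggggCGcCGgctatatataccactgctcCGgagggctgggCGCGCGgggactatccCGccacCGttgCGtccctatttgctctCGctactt
Fgf18: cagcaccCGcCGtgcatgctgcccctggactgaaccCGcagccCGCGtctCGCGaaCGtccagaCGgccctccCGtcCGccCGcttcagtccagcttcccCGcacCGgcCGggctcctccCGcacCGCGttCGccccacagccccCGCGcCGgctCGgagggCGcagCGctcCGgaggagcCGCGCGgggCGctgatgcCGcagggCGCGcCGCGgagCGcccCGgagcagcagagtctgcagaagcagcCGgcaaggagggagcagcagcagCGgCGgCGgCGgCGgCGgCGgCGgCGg
The Gdf10 promoter (chr14:33923337-33923636, plus strand) was wholly covered in 5 libraries, and that of its neighbour Gdf2 (chr14:33940789-33941088, plus strand) in none.
Gdf10: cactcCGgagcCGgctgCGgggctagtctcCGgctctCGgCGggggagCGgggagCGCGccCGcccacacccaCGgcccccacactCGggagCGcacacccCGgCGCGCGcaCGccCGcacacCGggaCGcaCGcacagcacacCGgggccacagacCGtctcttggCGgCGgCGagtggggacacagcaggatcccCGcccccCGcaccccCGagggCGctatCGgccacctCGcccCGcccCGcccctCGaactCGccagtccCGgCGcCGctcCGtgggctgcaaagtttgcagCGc
Gdf2: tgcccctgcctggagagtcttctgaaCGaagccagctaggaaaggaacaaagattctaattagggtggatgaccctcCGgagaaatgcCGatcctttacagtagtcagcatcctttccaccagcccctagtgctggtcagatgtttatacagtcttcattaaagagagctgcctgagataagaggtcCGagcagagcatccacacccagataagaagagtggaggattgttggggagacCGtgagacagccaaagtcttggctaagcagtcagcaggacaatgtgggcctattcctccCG
The Bmp8b promoter (chr4:123104911-123105210, plus strand) was wholly covered in 7 libraries, the highest number among the promoter sequences available. The Grem1 promoter (chr2:113758599-113758898, minus strand) was wholly covered in 5.
Bmp8b: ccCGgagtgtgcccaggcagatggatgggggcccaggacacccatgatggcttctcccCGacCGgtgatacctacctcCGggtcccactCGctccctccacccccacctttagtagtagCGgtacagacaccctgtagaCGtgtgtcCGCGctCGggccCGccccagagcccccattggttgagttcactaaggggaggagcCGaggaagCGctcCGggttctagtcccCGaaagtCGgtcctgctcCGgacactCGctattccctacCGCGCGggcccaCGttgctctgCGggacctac
Grem1: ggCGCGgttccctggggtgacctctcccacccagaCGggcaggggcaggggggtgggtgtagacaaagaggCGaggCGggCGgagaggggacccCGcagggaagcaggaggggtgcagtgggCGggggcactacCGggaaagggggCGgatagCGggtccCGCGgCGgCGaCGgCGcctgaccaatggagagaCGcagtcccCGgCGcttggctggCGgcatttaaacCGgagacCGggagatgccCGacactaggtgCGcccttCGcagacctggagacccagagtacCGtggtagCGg
The Gdf11 promoter (chr10:128891669-128891968, minus strand) is as rich in CG as the covered ones and was covered in none.
Gdf11: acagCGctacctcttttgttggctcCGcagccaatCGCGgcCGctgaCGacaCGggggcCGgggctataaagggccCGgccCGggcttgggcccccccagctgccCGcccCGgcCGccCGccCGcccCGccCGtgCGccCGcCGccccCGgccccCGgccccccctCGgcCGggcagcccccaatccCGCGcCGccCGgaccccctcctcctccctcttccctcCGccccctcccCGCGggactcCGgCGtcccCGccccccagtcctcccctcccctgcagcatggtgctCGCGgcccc

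These stretches hold 28 CG in Fgf4, 47 in Fgf18, 42 in Gdf10, 6 in Gdf2, 23 in Bmp8b, 28 in Grem1 and 36 in Gdf11. The median over 32851 RefSeq promoters of the same length was 7. As many CG as in Fgf18 occur in 1.44% of those promoters, as many as in Gdf11 in 6.23%, and as many as in Gdf2 in 56.4%.

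Libraries differed in ways that bear on every value that follows. The lists held 6905 to 15600 peaks covering 1.48 to 15.2 Mb, and the reads behind each are unknown. Median peak width was 485 to 751 bp at P7, 269 to 580 bp at P14, and 134, 149 and 410 bp in P60 replicates 1, 2 and 3. Of the 36 members marked at P7, 34 were highest in P7 replicate 1. Of the 30 marked at P14, 26 were lowest in P14 replicate 1, and of the 27 marked at P60, 23 were highest in P60 replicate 3. The part of this spread between lists in the results was not tested.

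The FGF and BMP families were widely covered by called peaks at P7 and little at P60. Coverage by called peaks is not a measure of the total mark. By western blot of cerebellar histones, the authors reported that total H3K27me3 rose from P7 to P14 and stayed raised at P60. The 3 libraries marked 36, 32 and 28 of the 51 members at P7, 24, 27 and 30 at P14, and 16, 16 and 25 at P60. Mean coverage over the 51 genes was 19.5% ± 4.97 (SD, n = 3) at P7, 11.9% ± 4.19 at P14 and 2.67% ± 2.63 at P60, where all 21938 genes averaged 4.11, 2.44 and 0.701%. At P7, 25 members had a mean over 20% and 4 of them, Bmp2, Bmp4, Fgf8 and Fgf4, a mean over 50%, a level reached by 78 genes in all. At P60 none of the 51 had a mean over 20%, and 3, Bmp8a, Bmp8b and Fgf17, had a mean over 10%.

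**Figure D1:**
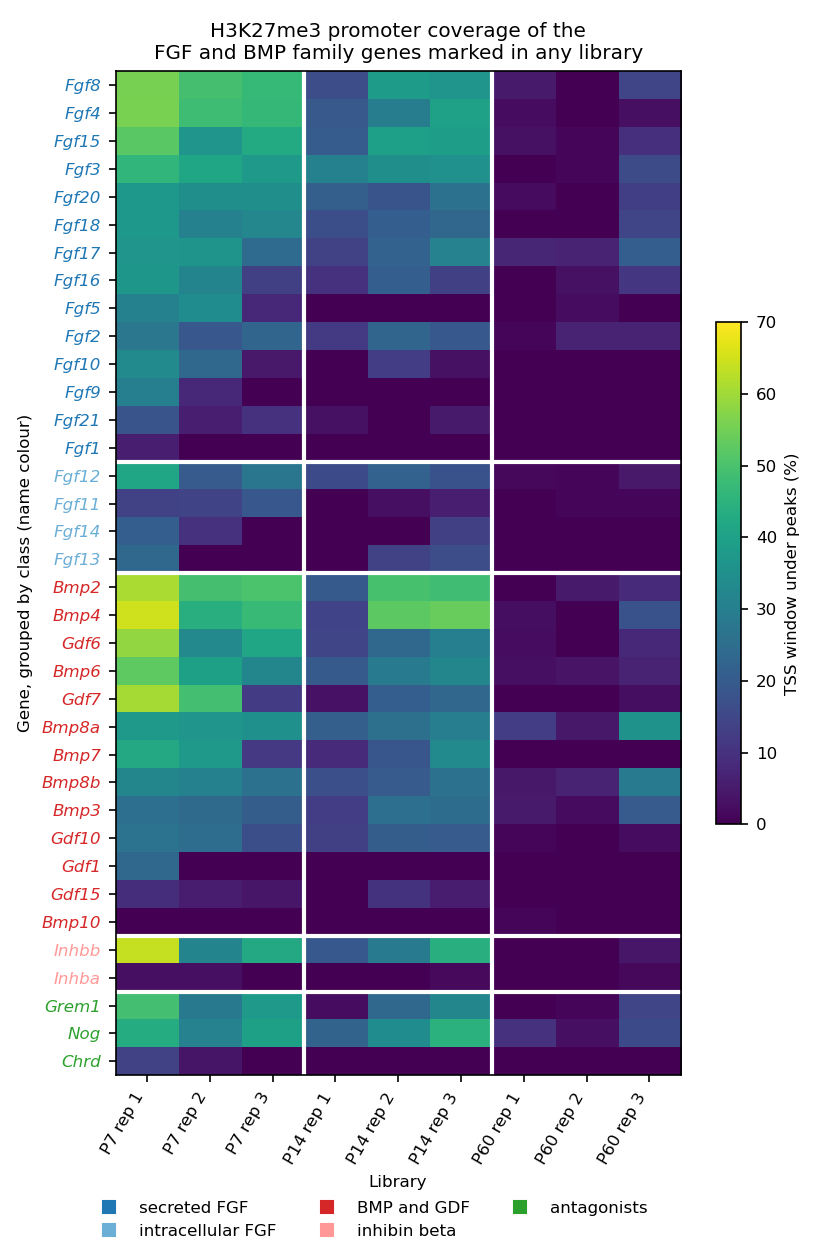
Promoter coverage (color, percent of the TSS window under peaks) of 36 of the 37 members marked in any library (rows, name color gives the class) in the 9 libraries (columns). P7 columns are the brightest, P14 replicate 1 is darker than its fellow replicates, and what is left at P60 sits mostly in replicate 3.

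From P7 to P60, coverage fell at 24 members and rose at none by limma (adjusted p under 0.05). The families had 34 members tested, those marked in 2 or more libraries. Of these 27 had an unadjusted limma p under 0.05, all lower at P60, beside 2803 lower and 49 higher of the 5120 genes. Across all genes tested, 45.8% were called lower and 0.605% higher. A closer comparison takes the level at P7 into account. Of the 25 members with a P7 mean over 20%, 22 (88%) were called lower, beside 1745 of 1960 genes (89.0%) at that level, so the share of calls in these families was near that of any well covered promoter. All 3 P7 libraries lay above all 3 P60 libraries at 26 members, 76.5% of those tested beside 52.1% of all genes tested. With P60 replicate 3 as the only P60 library the calls were lost, and a single library gives no spread of its own at P60. That library alone lay below every P7 library at 26 of the 34 (76.5%), beside 52.8% of all genes tested, and above every P7 library at 1 (2.94%), beside 7.77%. Unlike the share of calls, these shares without overlap were not matched for the level at P7.

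**Figure D2:**
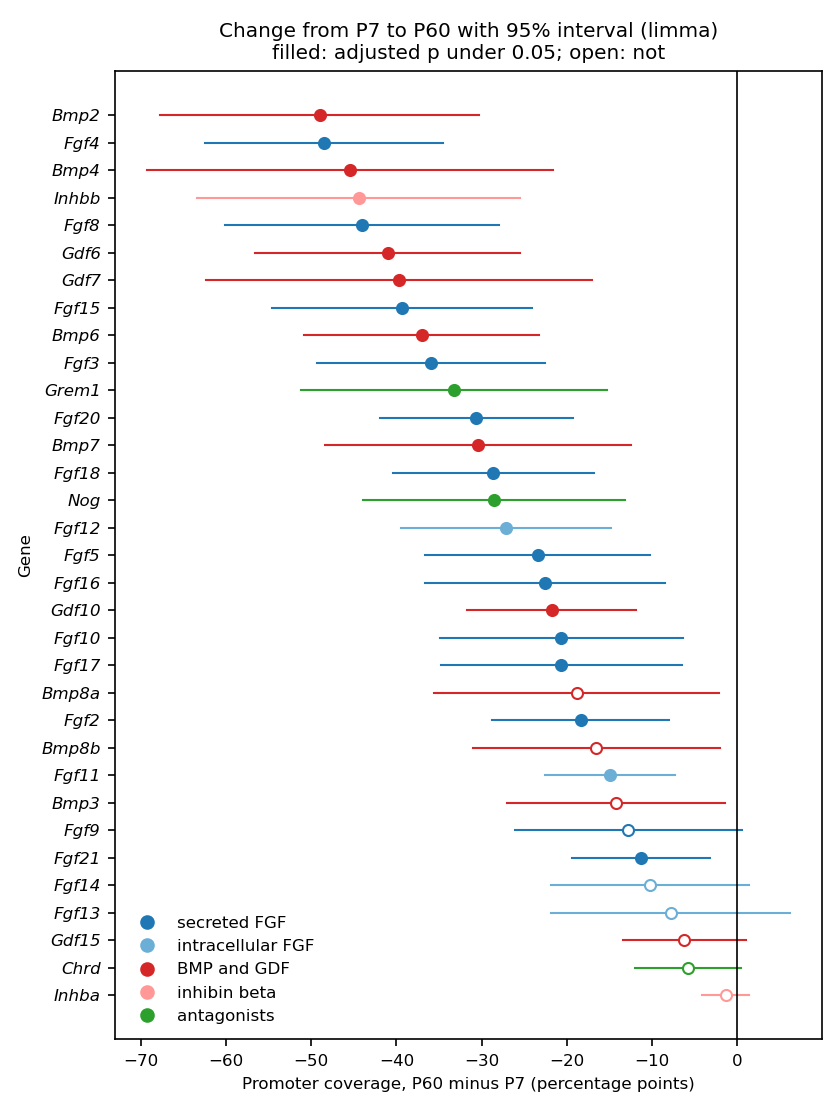
Difference in promoter coverage between P60 and P7 (x axis, percentage points) for 33 of the 34 members tested, with the 95% interval from limma. Filled points are the 24 members with adjusted p under 0.05, all left of zero, and open points are the other 9 drawn, also left of zero.

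Among the secreted FGFs, 14 of 18 were marked somewhere, 13 were tested and 12 fell from P7 to P60. Fgf8, the organizer signal of the midbrain and hindbrain border, had the highest P7 mean. Its promoter (chromosome 19) was covered by 55.7, 49.3 and 46.9% at P7, 16.6, 38.5 and 36.5% at P14, and 5.13, 0 and 14.6% at P60. The P7 libraries were above all others, and from P7 to P60 it fell by 44.1 percentage points (SE 7.32, limma adjusted p = 0.00130). Fgf17, from the same subfamily and the same signalling center, kept more. It was covered by 36.5, 36.4 and 24.3% at P7, 13.7, 21.9 and 31.2% at P14, and 7.55, 6.88 and 20.8% at P60, which was the highest P60 mean of the secreted FGFs. It fell by 20.6 points to P60 (SE 6.47, limma adjusted p = 0.0224), a call lost without P7 replicate 1 or 2 (0.0707 and 0.0668) or P60 replicate 1 or 2 (0.0836 and 0.0875). The adjusted p of limma ran from 0.0132 to 0.426 over all alternatives. Fgf18, the third of that subfamily, had 33.5% ± 3.43 at P7, 20.2% ± 3.22 at P14 and 4.90% ± 8.50 at P60.

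Fgf3, Fgf4 and Fgf15 lie in a row on chromosome 7, with start sites 23303 and 35145 bp apart, and all 3 promoters carried the mark. Fgf4, an early embryonic and limb signal, had 55.9, 48.2 and 46.6% at P7, 19.4, 29.7 and 40.01% at P14, and 2.32, 0 and 2.82% at P60. The 3 stages did not overlap. To P60 it fell by 48.5 points (SE 6.37), with the lowest adjusted p of the members (limma adjusted p = 0.000716). Fgf15, the mouse counterpart of human FGF19 and an endocrine FGF in the gut, had 52.1, 36.6 and 42.7% at P7, 20.3, 39.5 and 39.1% at P14, and 3.12, 0.950 and 9.33% at P60. Its P7 and P14 values overlapped, and it stayed marked in all 9 libraries. Fgf3, an inner ear and tail bud signal, is named here because it was 1 of only 2 members called between P14 and P60, a choice made after its values were seen. It had 46.1, 41.5 and 37.5% at P7, 30.7, 35.0 and 35.4% at P14, and 0, 1.08 and 16.1% at P60.

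Other secreted FGFs differed in how much they held at P14. Fgf2, a broad mitogen and neurotrophic factor, was marked in all 9 libraries, with 27.7, 19.1 and 22.9% at P7, 11.9, 22.8 and 19.3% at P14, and 0.917, 6.78 and 6.75% at P60. Of its P14 values 2 lay within the P7 range and that of replicate 1 lay below it. Fgf5, a hair growth regulator, was the opposite. It had 30.8, 34.1 and 7.80% at P7, 0% in all 3 P14 libraries, and 0, 2.35 and 0% at P60. Fgf20, an inner ear and midbrain signal, fell by 30.6 points to P60 (limma adjusted p = 0.00133). Fgf16 and Fgf21, a liver hormone, had P60 minus P7 differences of −22.6 and −11.3 points, and Fgf10, the lung and limb bud ligand, of −20.7 points, which passed limma with adjusted p of 0.0145, 0.0267 and 0.0225. The Fgf21 window is shared with Fut1, whose start lies 1799 bp away. These 3 calls each turned on single libraries. That of Fgf16 was lost without P7 replicate 1 (0.0566) or P60 replicate 1 or 2 (0.0601 and 0.0506), that of Fgf21 without any 1 of the P60 libraries (0.0615 to 0.0835), and that of Fgf10 without any 1 of the P60 libraries or P7 replicate 1 or 2 (0.0591 to 0.0763). Fgf9 had 30.3, 8.07 and 0% at P7 and 0% later, and did not pass (limma adjusted p = 0.100), but did without P7 replicate 3 (0.0187). Fgf1 was marked in 1 library and was not tested.

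The intracellular FGFs, which are not secreted and bind the tails of voltage-gated sodium channels, were marked at lower levels, and 2 of 4, Fgf11 and Fgf12, fell from P7 to P60. Fgf12 was the highest, with 41.5, 19.997 and 27.5% at P7, 15.7, 22.1 and 17.7% at P14, and 1.55, 1.18 and 4.73% at P60, and fell by 27.2 points to P60 (SE 5.63, limma adjusted p = 0.00326). Fgf11 had 13.9, 14.3 and 19.0% at P7, 0, 2.92 and 5.93% at P14, and 0, 1.33 and 0.883% at P60. Its window is shared with Tmem102, whose start lies 3767 bp away and whose own coverage was 34.0, 8.23 and 2.69% at the 3 stages, so the peaks cannot be assigned to Fgf11 alone. Fgf14, which is mutated in a spinocerebellar ataxia, had 20.8, 9.98 and 0% at P7, 0, 0 and 13.1% at P14 and 0% at P60, and Fgf13 had 23.5, 0 and 0%, then 0, 13.8 and 16.5%, then 0%. Neither passed limma in any contrast, though Fgf14 was called lower at P60 than P7 without P7 replicate 3 (0.0278), and no P60 library marked either gene. For Fgf12, Fgf13 and Fgf14 the marked start was an inner one, 188117, 433635 and 484225 bp from the 5′ end of the gene, and the window at the 5′ end had a P7 mean of 0%.

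Of the 20 BMP and GDF ligands, 13 were marked somewhere, 11 were tested and 7 fell from P7 to P60. Bmp2 and Bmp4, the closest pair of BMP ligands, had the highest P7 means of all 51 genes. Bmp2 (chromosome 2) was covered by 61.2, 49.4 and 50.3% at P7, 19.9, 49.7 and 48.5% at P14, and 0, 5.08 and 8.68% at P60. P14 replicate 1 lay far below P7, the other P14 libraries lay at or just below the lower P7 values, and the P60 libraries were under all of them. To P60 it fell by 49.0 points (SE 8.52, limma adjusted p = 0.00152), the largest change of the members. Bmp4 (chromosome 14) had 65.0, 44.1 and 47.3% at P7, 14.1, 52.5 and 53.6% at P14, and 2.55, 0 and 17.6% at P60, so that 2 P14 libraries exceeded 2 of the P7 ones. It fell by 45.4 points to P60 (SE 10.8, limma adjusted p = 0.00639).

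The roof plate and joint ligands of the GDF5 to GDF7 subfamily had 2 marked genes. Gdf6 had 58.6, 33.1 and 41.3% at P7, 14.6, 23.4 and 30.3% at P14, and 2.20, 0 and 7.70% at P60, with no overlap between stages. Gdf7 had the largest spread at P7, with 60.6, 49.0 and 12.2% (SD 25.2), and fell by 39.7 points to P60 (SE 10.3, limma adjusted p = 0.00949). Gdf5, the joint-forming member, was never marked. Gdf10, a gene of Bergmann glia in the cerebellum, had 26.7, 25.1 and 16.8% at P7, 13.3, 20.6 and 20.1% at P14, and 0.850, 0 and 2.35% at P60, and fell by 21.8 points to P60 (SE 4.54, limma adjusted p = 0.00320). Its start lies 17452 bp from that of Gdf2, a ligand of vascular endothelium that was never marked. Gdf10 and Gdf2 were compared after their values were seen.

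Bmp8a and Bmp8b, of the BMP5 to BMP8 subfamily, had the highest P60 means of the 51 genes. Bmp8a had 37.8, 36.6 and 35.0% at P7, 21.1, 25.9 and 30.1% at P14, and 12.6, 4.50 and 35.7% at P60. Its P60 replicate 3 lay inside the P7 range, while the other P60 libraries lay below every earlier one, and the difference of −18.9 points (SE 7.60) did not pass (limma adjusted p = 0.0611). Its paralog Bmp8b had 32.2, 30.8 and 26.4%, then 17.2, 20.03 and 26.5%, then 4.57, 6.65 and 28.6% (P60 minus P7 −16.5 points, SE 6.62, limma adjusted p = 0.0594). The promoters of the pair shared 163 of 300 bases when aligned (54.3%), and the sources do not say how reads matching both genes were placed. Bmp3, which antagonizes other BMPs, had 25.5, 24.1 and 20.6%, then 12.7, 25.6 and 24.6%, then 5.17, 2.18 and 20.1% (−14.2 points, SE 5.85, limma adjusted p = 0.0648). Its P60 replicate 3 lay just below the lowest P7 library. At these 3 genes the 95% intervals of the P60 minus P7 difference ran from −35.5 to −2.16, −31.1 to −2.01 and −27.1 to −1.41 points. Leaving out P60 replicate 3 changed each call. Without it limma called all 3 lower at P60, Bmp8a by −27.9 points (adjusted p = 0.00431), Bmp8b by −24.2 (adjusted p = 0.00498) and Bmp3 by −19.7 (adjusted p = 0.0147). Bmp3 was also called without P14 replicate 1 (0.0440). With only peaks of −log10 q of 4 and up, Bmp8a and Bmp8b were called lower too, by −36.5 points (adjusted p = 0.0121) and −29.8 points (adjusted p = 0.0156), and all 3 P60 libraries were at 0% for both. Bmp6, an iron-regulating BMP, belongs to the same subfamily as Bmp8a and was marked in all 9 libraries too. It fell from P7 to P60, from 52.5, 39.9 and 32.2% through 19.7, 29.0 and 32.1% to 2.75, 3.77 and 6.92% (−37.0 points, SE 6.30, limma adjusted p = 0.00139). Bmp7, the kidney and eye BMP, fell by 30.4 points to 0% in all P60 libraries (SE 8.17, limma adjusted p = 0.0110), a call lost without P7 replicate 1 (0.0545).

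Among the inhibin beta subunits only Inhbb was well covered. Inhbb, the subunit of activin B, had 63.8, 31.5 and 42.3% at P7, 19.3, 29.1 and 44.3% at P14, and 0, 0 and 4.28% at P60, and fell by 44.4 points (SE 8.65, limma adjusted p = 0.00243). Inhba, the activin A subunit, did not exceed 2.95% in any library, and the liver-expressed Inhbc and Inhbe were never marked. Bmp1, which is named as a BMP but is a metalloprotease that cleaves Chordin and procollagens, was never marked either.

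Among the antagonists Grem1 and Nog were well covered, and both fell from P7 to P60. Grem1 had 49.1, 28.4 and 37.8% at P7, 2.43, 23.7 and 32.3% at P14, and 0, 0.950 and 14.6% at P60, and fell by 33.3 points (SE 8.20, limma adjusted p = 0.00729). Nog had 43.2, 31.0 and 39.9% at P7, 22.3, 34.0 and 44.6% at P14, and 9.88, 2.97 and 15.6% at P60, the only antagonist marked in all 9 libraries. Its P7 and P14 values overlapped, and it fell by 28.5 points to P60 (SE 6.99, limma adjusted p = 0.00703). Chrd had 13.5, 3.85 and 0% at P7 and 0% later, and its window is shared with Thpo, 1384 bp away. Chrd did not pass (limma adjusted p = 0.110), but did without P7 replicate 3 (0.0209).

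Settings other than the libraries also ended calls between P7 and P60. With only those peaks that reach a −log10 q of 4, limma called 7 members of 17 tested, beside 421 of 1618 genes. Of these 5 were among the 24 and the others were Bmp8a and Bmp8b. Bmp2, Bmp6, Fgf3, Fgf8, Fgf12, Fgf16, Fgf18, Gdf10 and Inhbb lost their call. The rest of the 24 had such peaks in too few libraries and were not tested at that threshold. A −log10 q of 2 ended the calls of Fgf2, Fgf10, Gdf6 and Gdf7. Equal numbers of peaks per list ended those of Bmp4, Fgf2, Fgf10, Gdf6, Gdf7 and Grem1, and 1 kb windows those of Bmp4, Fgf5, Inhbb and Nog.

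From P7 to P14 only Fgf5 and Fgf11 fell, of 34 tested, beside 11.7% of all genes tested, and none rose, beside 0.352%. Fgf5 fell by 24.2 points (SE 6.01, limma adjusted p = 0.0260) and Fgf11 by 12.8 points (SE 3.49, limma adjusted p = 0.0370). At an unadjusted p under 0.05 there were 12 lower and 0 higher, beside 1423 and 144 of the 5120 genes. Of the 25 members with a P7 mean over 20%, 1 (4%) was called, beside 20.3% of the 1960 genes at that level, a difference that was not tested. Without P7 replicate 3 there were 7 calls (978 over all genes), with 1 without P7 replicate 1 (550) or P60 replicate 2 (310). There were 0 without P14 replicate 1 or 2 (281 and 174) or P60 replicate 1 or 3 (312 and 440). The call of Fgf5 held only without P7 replicate 3 or P60 replicate 2, with adjusted p from 0.0508 to 0.0878 without any other library. That of Fgf11 was lost without P14 replicate 1 or 2 (0.0792 and 0.123) or P60 replicate 1, 2 or 3 (0.0816, 0.0832 and 0.0547).

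From P14 to P60 only Fgf3 and Fgf4 fell (P60 minus P14 −27.98 and −28.001 points, SE 6.12 and 6.37, limma adjusted p = 0.0459 and 0.0497), beside 2.07% of all genes tested. None rose, as for all genes (0%). At an unadjusted p under 0.05 there were 16 lower and 0 higher, beside 1266 and 40 of the 5120 genes. Without P14 replicate 1, the list with the narrowest peaks of its stage, there were 12 calls (1107 over all genes), with 8 without P7 replicate 1 (349) and 3 without P60 replicate 3 (199). Leaving out P7 replicate 2 or 3, P14 replicate 2 or 3 or P60 replicate 1 or 2 gave 0, with adjusted p for Fgf3 and Fgf4 between 0.0710 and 0.215, and Fgf4 also lost its call without P60 replicate 3 (0.0540). All 3 P14 libraries lay above all 3 P60 libraries at 16 members (47.1% of those tested, beside 25.7% of all genes tested), and all 3 P7 above all 3 P14 at 11 (32.4 and 27.2%). Neither share was matched for the level of coverage.

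The largest classes had similar means. Mean coverage of the 18 secreted FGFs was 28.02, 22.2 and 18.0% in the P7 libraries, and that of the 20 BMP and GDF ligands 24.8, 18.7 and 14.9%. Within each P7 library the secreted FGFs were thus higher, by 3.28 points ± 0.175 (SD, n = 3). That order turned when only the window at the 5′ end of each gene was used (−3.08 points). At 11 marked members the most covered start was an inner one, among them 6 secreted FGFs and 1 BMP. Fgf4, Fgf20 and Fgf10 had 0% at the 5′ end at P7. The RefSeq promoters of Fgf4 and Fgf10 lie at the inner start, so the 0% does not describe those promoters. At P60 the difference was −0.270 points ± 0.288. Antagonists averaged 27.9, 15.8 and 19.4% at P7, 1.58 points ± 3.95 above the BMP and GDF ligands, less than the spread between libraries, and below them with 1 kb windows (−8.03 points) or equal numbers of peaks per list (−0.0503). These are means over chosen genes and were not tested. Within the classes, subfamilies ranged more widely than the classes did, from 52.9% ± 8.91 for Bmp2 and Bmp4 at P7 and 38.9% ± 4.30 for Fgf8, Fgf17 and Fgf18 to 0% for Gdf9 and Bmp15, the oocyte ligands.

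**Figure D3:**
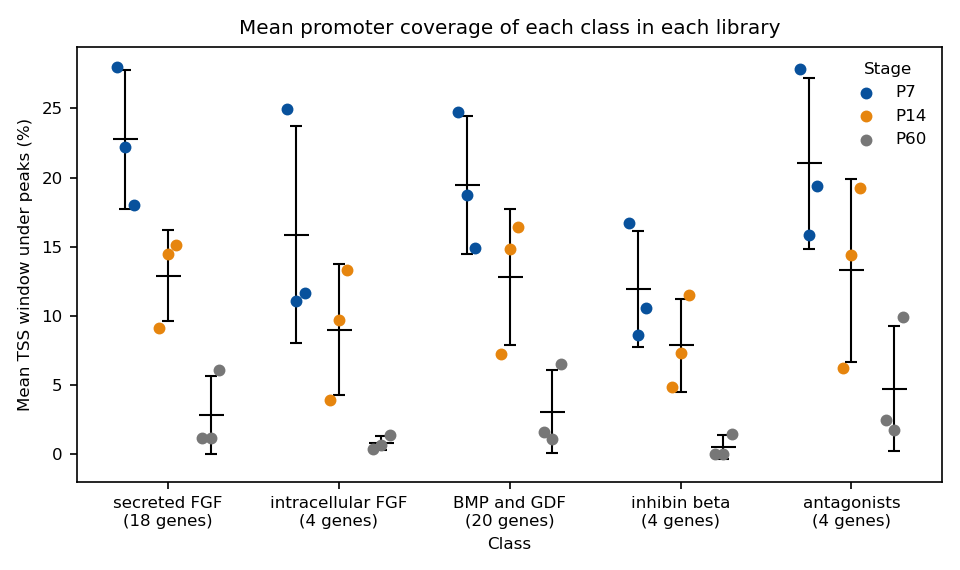
Mean promoter coverage (y axis, percent) of each class with the number of genes in brackets. Points are the 3 libraries of a stage and bars the mean and SD. P60 points lie below the P7 points in each class drawn, and at P7 the inhibin beta points (up to 16.7%) lie below all secreted FGF points while the secreted FGFs, BMPs and GDFs, and antagonists overlap.

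The share of the P7 level that was left was set beside other well covered promoters. Over the 25 members with a P7 mean over 20%, a median of 66.6% of it was left at P14 and 12.9% at P60, beside 61.0 and 8.70% over 1960 genes. The highest share left at P60 was that of Bmp8a (48.3%), followed by Bmp8b (44.5%), Bmp3 (39.1%) and Fgf17 (36.3%). Bmp7 and Fgf10 were at 0%, and Gdf7, Inhbb, Fgf5 and Fgf4 at 2.20, 3.11, 3.23 and 3.41%. By class the median left at P60 was 13.7% for 11 secreted FGFs and 9.67% for 10 BMP and GDF ligands.

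Peaks were centered just downstream of the start site. At P7 the most covered 500 bp bin was centered 750 bp after the start in the secreted FGFs (49.0%), the BMP and GDF ligands (43.8%) and the antagonists (49.6%). At P60 the highest bin was the one just before the start in the FGFs (9.09% ± 12.1, SD) and the one just after it in the BMPs (9.39% ± 13.1). The bins centered 750 bp after the start were close to these (8.09 and 8.99%), well within the spread between libraries. Of the 25 members over 20% at P7, 20 (80%) had more coverage after than before the start, beside 78.8% of all genes at that level. Fgf10, Fgf17, Fgf18 and Gdf10 had more before the start, and so did Bmp4. The Bmp4 start read here was the one most covered over the 9 libraries, an inner one 3365 bp from the 5′ end of the gene. There 85.6% of the 3 kb before the start was covered and 12.7% of the 3 kb after it. That 3 kb before the inner start lies downstream of the 5′ end. Bmp2 had 13.5% before and 93.8% after its start. Nog and Fgf5 had none of the mark before the start and 76.1 and 48.5% after it at P7.

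**Figure D4:**
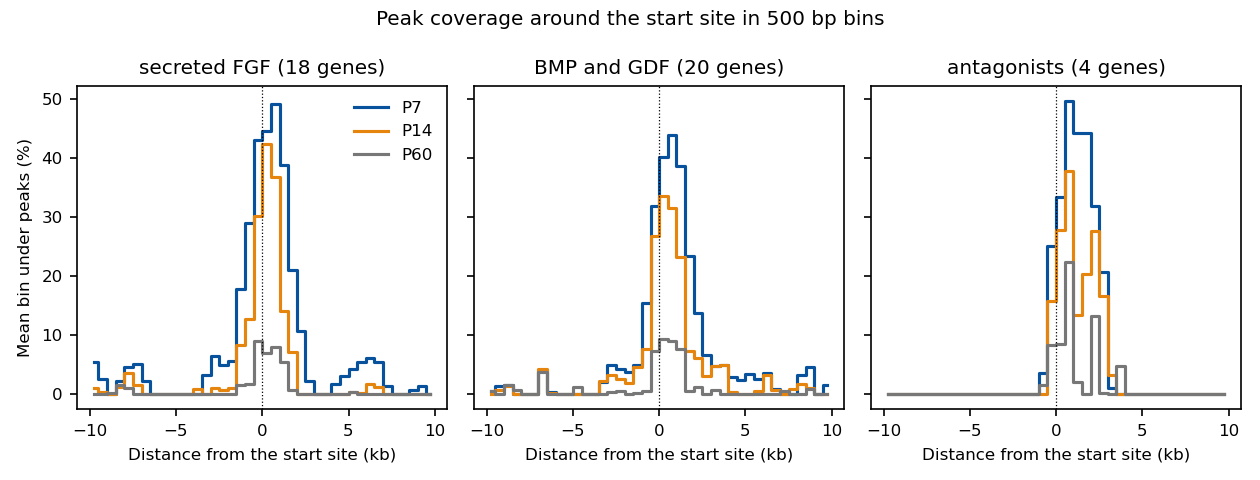
Mean percent of 500 bp bins under peaks (y axis) against distance from the most covered start site (x axis, kb, positive downstream) for 3 classes at P7, P14 and P60. Coverage rises within about 3 kb of the start and is highest at 0.75 kb downstream at P7. In the FGFs and BMPs the highest P60 bin is next to the start, but within the spread between libraries of the bin at 0.75 kb.

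Members with more CpG were more often marked. Those marked in 6 or more libraries (24 genes) had a median of 33.8 CpG per kb of window, those marked in 1 to 5 of them (13 genes) 18.8, and the 14 never marked 15.5. Members were read at the most covered start. At the window of the 5′ end, which is a different one for 11 members, the median over all protein-coding genes was 18.0, with 24.2 for those marked in 6 or more libraries and 16.5 for those never marked. Across the 51 genes, CpG per kb and mean P7 coverage had Pearson's r = 0.666 and Spearman's rho = 0.679. This is a description across genes, which share the same 3 libraries and are not replicates. Members off this line were Fgf17 and Fgf20, covered by 32.4 and 35.7% at P7 with 13.7 and 15.5 CpG per kb, and Fgf9, Chrd, Gdf1, Gdf11 and Bmp1, which had 48.7, 32.8, 35.0, 29.0 and 31.5 CpG per kb and were covered by 12.8, 5.80, 7.89, 0 and 0% at P7.

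**Figure D5:**
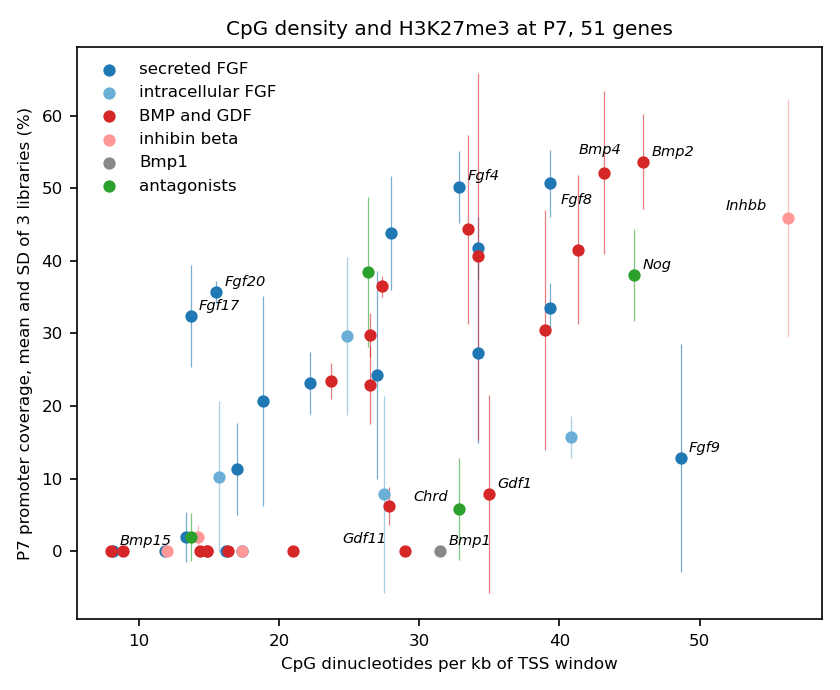
CpG dinucleotides per kb of TSS window (x axis) and mean P7 promoter coverage with SD over 3 libraries (y axis, percent) for the 51 genes, colored by class. Among genes under 20 CpG per kb, Fgf17, Fgf20 and Fgf10 stand out and no other is above Fgf21 (11.3%), and Bmp2, Bmp4, Fgf8 and Inhbb lie at the upper right.

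Never marked in any of the 9 lists were Fgf6, Fgf7, Fgf22, Fgf23, Bmp1, Bmp5, Bmp15, Gdf2, Gdf3, Gdf5, Gdf9, Gdf11, Inhbc and Inhbe, which are 14 of 51 (all genes 15218 of 21938). They include the oocyte ligands, the phosphate hormone Fgf23, the muscle FGF Fgf6 and the mesenchymal ligand Fgf7. Gdf1 and Bmp10 were marked in 1 library each, at P7 and at P60. Absence from a list at unknown depth does not show that the mark is absent.

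Receivers, transducers and targets of the same signals were read in the same way. The list held 70 genes outside the families, of which 48 were marked in any library and 44 tested. From P7 to P60 26 of those tested fell, beside 45.8% of all genes tested. From P7 to P14 3 fell (all genes 11.7%) and from P14 to P60 1 (2.07%). None was higher, beside 0.605, 0.352 and 0% of all genes tested. Mean coverage of the 70 genes was 14.4% ± 5.12 at P7 and 1.75% ± 1.45 at P60. Of 9 FGF receptors and cofactors 7 were tested and 5 fell to P60. Fgfr3 (48.4 to 4.90%, limma adjusted p = 0.000790) and Fgfr2 (43.4 to 0.511%) were the highest at P7. Of 11 FGF feedback and target genes 6 were tested and 4 fell, with Spred3 and Il17rd the highest. Of 12 BMP and activin receptors 6 were tested and 4 fell, with Acvrl1 and Rgma the highest. Of 8 Smads 2 were tested. The inhibitory Smad6 fell (53.2% at P7, limma adjusted p = 0.00181), and Smad3 (16.3 to 0%) was not called (limma adjusted p = 0.0701). The 4 Smads never marked include the other inhibitory one, Smad7. Of 6 BMP targets 5 were tested and 2 fell, Id3 (49.8 to 0%) and Msx2 (28.2 to 0%). Of 15 other secreted antagonists 12 were tested and 7 fell, with Fst, which binds activin, the highest (45.8 to 3.65%). Of 9 other ligands of the superfamily 6 were tested and 3 fell, with Nodal (42.3 to 9.25%) and Tgfb1 (38.0 to 11.3%) the highest.

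Markers of the cell types in the dissected tissue were read in the same way. Of 40 marker genes 21 were marked in any library. Mean coverage of the 40 was 7.72 to 14.3% at P7, 3.83 to 9.35% at P14 and 0.307 to 3.24% at P60. From P7 to P60 11 of the 18 tested were called lower, beside 45.8% of all genes tested. Of the 7 granule neuron markers Zic1, Zic2, Cbln3 and Gabra6 were at 0% in all 9 libraries while Cbln1, Neurod1 and Pax6 had 21.9, 3.94 and 1.11% at P7 and 0% later, so no granule neuron marker was under a peak at P14 or P60. Pcp2 and Itpr1 of Purkinje cells, Gfap and Slc1a3 of astrocytes, and Mbp and Mog of oligodendrocytes were also at 0% throughout. So were 4 of 5 microglia markers. The Purkinje cell markers Foxp2 and Skor2 fell to P60 (−20.3 and −17.5 points, limma adjusted p = 0.0172 and 0.0443). Calb1 (not called) and Car8 (not tested) of the same cells had 6.02 and 4.88% at P7 and 0% later. The astrocyte markers Hopx, Aqp4 and Aldh1l1 had 7.80, 4.57 and 2.91% at P7 and were not called. Of 5 endothelial markers Cldn5 and Flt1 had 45.2 and 46.0% at P7 and fell to P60, Kdr had 18.7% and was not called, and Pecam1 and Cdh5 were at 0% in all 9 libraries. Of 7 oligodendrocyte lineage markers Pdgfra, Sox10 and Olig1 had 46.5, 39.0 and 32.4% at P7 and fell to P60, and Olig2 had 11.5% and was not called. All 3 meningeal fibroblast markers tested fell to P60, and the other two, Dcn and Lum, were at 0% throughout. Coverage at part of these markers (11 of 40 called) therefore fell from P7 to P60 beside that of the FGFs and BMPs. The part of cell composition in the changes was not tested.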

How the data were processed

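H3K27me3 ChIP-seq was measured in mouse cerebellum. Per the labels and the submitters' processing notes, the authors read 50 bp single ends, checked them with FastQC, trimmed them with Trimmomatic 0.38, aligned them to mm10 with STAR 2.7.2b and called broad peaks per library with MACS2 2.1 at a false discovery rate of 0.01. Their bedtools 2.25.0 and DESeq2 1.36.0 steps were not repeated. Each deposited list gives a score (10 times −log10 q, rounded down), a fold value (a ratio to local background within that library), and −log10 p beside −log10 q. The deposited lists reach down to a −log10 q of about 1.00, below the stated threshold. Read numbers are not given in the sources used here. Depth is therefore unknown, and counting intervals were left out.

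Coverage was computed on GRCm38 with GENCODE vM21 annotation for 21938 protein-coding genes, as the percent of the most covered TSS window (3 kb each side) under peaks, chosen in each library separately. Genes marked in at least 2 of the 9 lists (5120) were fitted together with limma 3.58.1 (trend and robust variance, 3 groups), with Benjamini-Hochberg adjustment over all of them and a threshold of 0.05. The fit was tested on simulated data first. Samples were grouped by the stage in their titles. Replicates are labelled as separate samples, and p-values measure the spread between them. The 5 libraries of the knockout experiment (2 Kdm6b-WT, 3 Kdm6b-cKO) were planned but left out: 25 to 74 of their peaks lie past the ends of 4 or 5 GRCm38 chromosomes, although the labels name mm10 for them too. Their build is therefore uncertain, and positions were not converted. Python 3.11.15, numpy 2.4.6, scipy 1.17.1, pandas 2.3.3, matplotlib 3.10.9 and R 4.3.3 were used.

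Members and lists were chosen with earlier results of these data known. Genes named with values per library were, in each class, the 3 with the highest P7 mean and the 1 with the highest P60 mean, those called from P7 to P14 and those marked in all 9 libraries. Gdf7, Fgf9 and Fgf13 were added after their values were seen. Others named are said to be chosen after their values were seen or are given as ranges, means or differences. Spry3 and Hjv of the pathway lists were not among the genes read. Alternatives changed the peak threshold, window, TSS, number of peaks, filter, scale and variance model, and left out each library in turn. Values of some single genes are not reported here.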

Additional observations from a re-analysis of the deposited data

How the results depend on the processing

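The count of 24 members lower at P60 than P7 was 18 to 25 under the other thresholds, windows, filters, scales and models and 20 to 27 when 1 library was left out, except that it was 7 with peaks of −log10 q of 4 or more (17 members tested) and 0 with P60 replicate 3 as the only P60 library, where the spread is taken from the other stages and 0 of 4875 genes passed. The 2 members lower at P14 than P7 became 4 with peaks of −log10 q of 2 or more, 0 with −log10 q of 4 or more, 0 with 1 kb windows, 4 without trend and robust variance, 1 on the log2(percent + 1) scale, 0 with only P60 replicate 3, and 0 to 7 when 1 library was left out. The 2 lower at P60 than P14 became 9 with −log10 q of 2 or more, 0 with 4 or more, 10 with 1 kb and 0 with 5 kb windows, 0 with equal numbers of peaks per list, 5 with genes marked in 3 or more libraries, 7 without trend and robust variance, 12 on the log2 scale, 0 with only P60 replicate 3, and 0 to 12 when 1 library was left out. Counts over all genes moved too. The 597 lower at P14 than P7 became 448 and 91 with −log10 q of 2 and 4 or more, and 485 with 1 kb windows. The 106 lower at P60 than P14 became 339 and 0 at those thresholds, and 500 and 0 with 1 and 5 kb windows. Without trend and robust variance they were 674 and 350, and on the log2 scale 440 and 953. Equal numbers of peaks left 40 lower at P60 than P14. The cause of these moves was not tested. Counts of members higher were 0 under every alternative run. Secreted FGFs minus BMP and GDF ligands at P7 (3.28 points) was 3.48 and 5.96 with the stricter peaks, 7.20 and 1.68 with 1 and 5 kb windows, −3.08 at the 5′ end and 2.81 with equal numbers of peaks, and 3.19 to 3.36 without 1 P7 library. Antagonists minus BMP and GDF ligands at P7 (1.58 points) was −8.03 with 1 kb windows and −0.0503 with equal numbers of peaks. Of 464 alternative fits in which the 24 called members were tested, 401 kept the call and its direction, 63 lost it and 0 reversed. Settings in which a called member was marked in too few libraries to be tested are not among the 464. Correlations of same-numbered libraries ran from −0.216 to 0.249 and those of others from −0.265 to 0.214. They cannot show whether replicate numbers pair the samples. With a replicate block the counts were 24 for P60 against P7, 0 for P14 against P7 and 0 for P60 against P14. Over all genes 2044, 233 and 0 were lower with it, beside 2347, 597 and 106 without it. The fit over all protein-coding genes could not be run because most genes had no variance, and the alternatives for Kdm6b-cKO against Kdm6b-WT were not run because the build of those lists is uncertain. Unknown depth limits every 0% value.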
